A study of Homo sapiens with 18 samples.

Results

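Human THP-1 cells, a monocyte-like leukaemia line, were compared for how their response to LPS differed after transfection with a scrambled, non-targeting siRNA (SCR) and in the control without siRNA (WT). The quantity described is the interaction, that is, the log2 LPS response in SCR minus the log2 LPS response in WT. It was tested for every gene that passed a filter on low counts, which left 16678 of the 63677 genes in the table, and it rests on 12 of the 18 libraries, 3 in each of the groups WT and SCR without LPS and WT and SCR with LPS. SCR cells received 25 nM of the scrambled siRNA with a lipid reagent. The deposited sample labels call WT untreated, whereas the treatment description gives it transfection mix without siRNA, so an effect of the siRNA and one of the reagent cannot be told apart. At 72 h after transfection the cells were kept for 4 h with 10 ng/ml of LPS or with medium alone, by the deposited labels, while a supplementary description of the same experiment gives 3 h. The other 6 libraries come from cells that received an siRNA against TRAFD1 (KD), with and without LPS, and their values are given for comparison only. All libraries come from 1 cell line, and no source says that the 3 libraries of a group came from separate passages, so the p-values measure only the spread between these libraries.

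LPS is a component of the outer membrane of Gram-negative bacteria. Through CD14, TLR4 and the adaptors MYD88 and TICAM1 it switches on the transcription factors NF-kB, AP-1 and IRF, which raise chemokines, cytokines and surface molecules as well as the inhibitors that later end the signal, such as NFKBIA, which holds NF-kB in the cytoplasm. Cells also carry sensors for foreign RNA, and RNA delivered with lipid can reach endosomes and cytoplasm where those sensors sit.

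The 12 libraries held from 8206023 to 22344279 counts, and 3 counts corresponded to between 0.134 and 0.366 CPM, the normalised unit used throughout (counts scaled to the size of the library). Reads of genes encoded on mitochondrial DNA took from 3.19% to 3.37% of counts in WT and from 3.28% to 3.47% in SCR without LPS, and from 3.82% to 4.45% in WT and from 3.72% to 5.20% in SCR with LPS. The 10 monocytic markers summed to between 368 and 455 CPM in every WT and SCR library. Of the defining markers of other cells, CD3D, CD3E, MS4A1, EPCAM and KRT19 stayed below 0.5 CPM in all 18 libraries. TRAFD1 differed by 0.21 ± 0.22 (log2, SE) between SCR and WT without LPS (adjusted p = 0.675) and averaged 23.7 ± 3.38 CPM in SCR against 8.67 ± 3.14 CPM in KD (SD, n = 3).

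LPS changed 2380 genes in WT (14.3% of those tested, with 7.01% higher and 7.26% lower) and 2869 in SCR (17.2%, with 8.64% higher and 8.56% lower) at an adjusted p under 0.05 (edgeR quasi-likelihood test, Benjamini-Hochberg over all genes tested). The response itself differed between SCR and WT for 39 genes, 0.234% of those tested. For 36 of them the interaction was negative (0.216%), and for 3, IL6R, PHACTR3 and EIF4G1, it was positive (0.0180%). Before adjustment, 9.96% of genes had p under 0.05, of which 905 were negative (5.43% of those tested) and 756 positive (4.53%), and the median over all genes tested was 0.01. The 39 genes stand for fewer signals, since 3 pairs, CCL4L1 and CCL4L2, CCL3L1 and ENSG00000256515, and SPDYE3 and AC138783.11, had nearly equal counts in every library, so the values of each pair are 1 signal and its split is uncertain.

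A negative interaction had 3 forms. For 29 of the 36 genes the level rose with LPS in both WT and SCR, and rose less in SCR. For GPD2, ODC1 and ITGB2-AS1 the rise passed the test in WT and not in SCR. KLHDC7B, RPS17P2, SPDYE3 and AC138783.11 fell with LPS in SCR and did not pass the test in WT. Over the 36 genes the median LPS response was 2.43 in WT and 1.44 in SCR (log2).

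**Figure D1:**
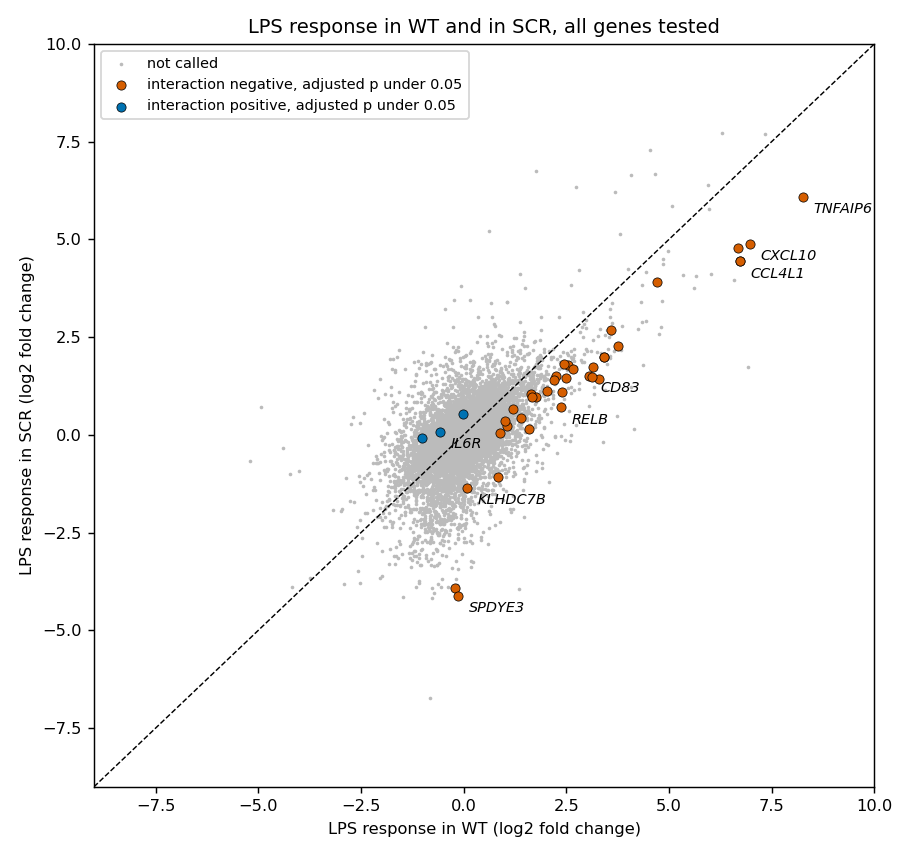
LPS response (log2 fold change) in WT on the horizontal axis and in SCR on the vertical axis for the 16678 genes tested, with the line of equal response dashed. The 36 genes with a negative interaction lie below the line, most of them at the upper right where both responses are rises, and the 3 with a positive one lie above it near the centre.

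Most of the negative interactions came from the state without LPS. All 36 genes had a higher fitted level in SCR than in WT without LPS. For 30 of them that difference passed the test, beside 1.78% of all genes tested (3.23% in either direction). Of the 36, 32 rose with LPS in WT. Among all 1169 genes that did so, 158 passed as higher in SCR without LPS and 4 as lower. That class was chosen partly by the same WT libraries. With LPS, 24 of the 36 had a lower fitted level in SCR, and only GPD2, LTB and PSTPIP2 passed the test, beside 0.0899% of all genes (0.114% in either direction and 0.0240% higher in SCR). The median difference between SCR and WT over the 36 genes was 1.15 without LPS and -0.13 with LPS (log2). WT and SCR libraries did not overlap for 35 of the 36 without LPS and for 21 with LPS, whereas 22.6% and 22.8% of all genes tested did not overlap in these states. These differences use the same libraries as the interaction and are its 2 parts, not separate evidence for it. With LPS, equally numbered WT and SCR libraries deviated together, and with the replicate number as a block 135 genes in place of 19 differed between SCR and WT. Those 135 included NFKB2 (adjusted p = 0.0427) and TNIP1 (adjusted p = 0.0179) beside GPD2, LTB and PSTPIP2. Without SCR replicate 5 with LPS and without the block, edgeR called 0 genes in that state, with 1529 at an unadjusted p under 0.05, and GPD2, LTB and PSTPIP2 had adjusted p of 0.0682, 0.0974 and 0.258.

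**Figure D2:**
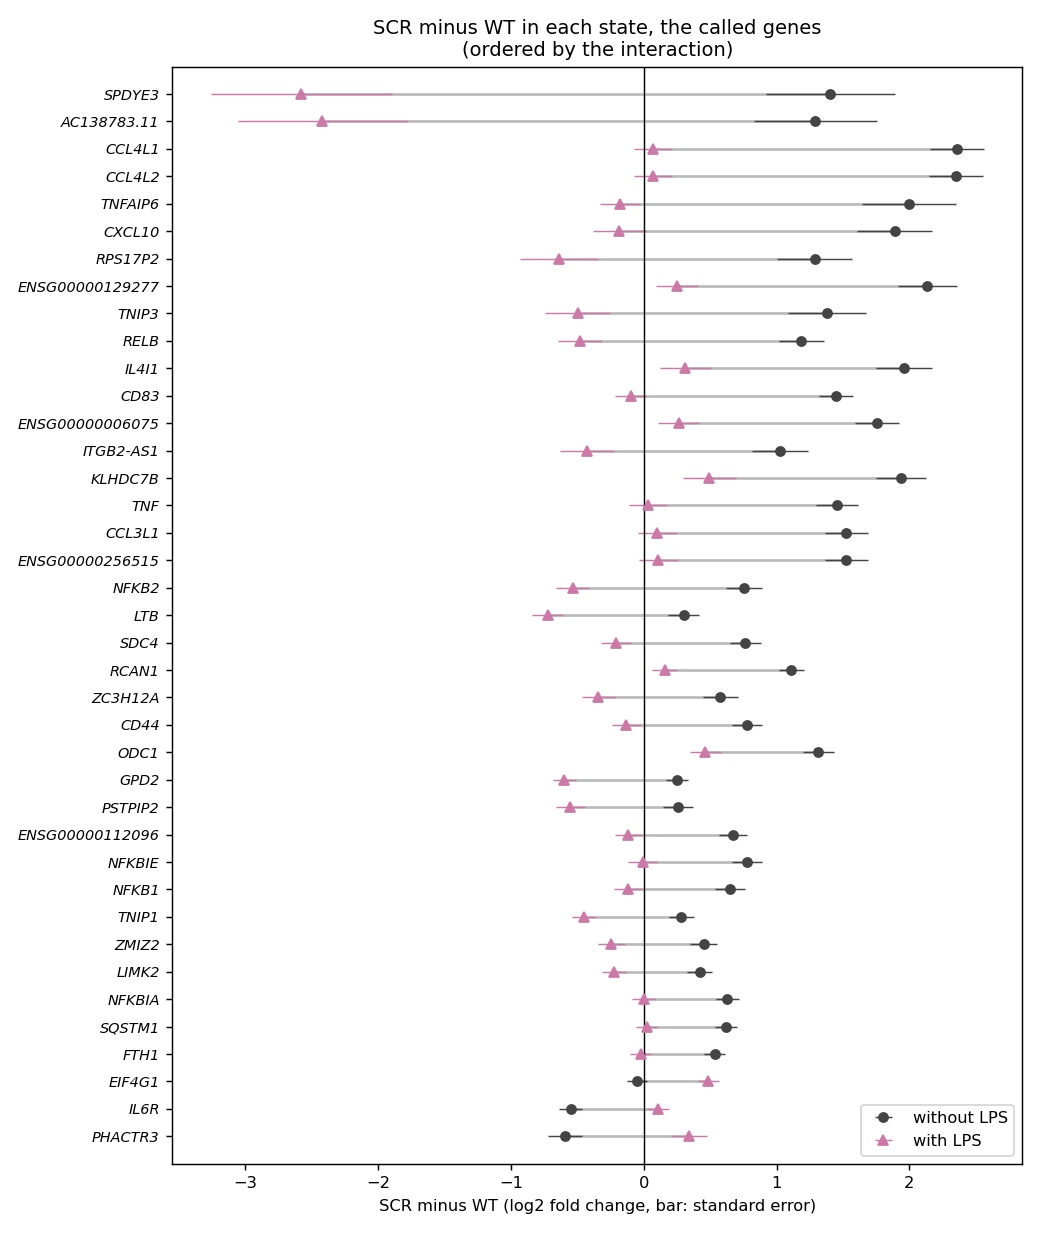
Difference between SCR and WT (log2, bars are standard errors) without LPS (circles) and with LPS (triangles) for the 39 genes whose LPS response differed, ordered by the interaction. For 30 of the 36 genes with a negative interaction the circle lies farther from 0 than the triangle, and GPD2, LTB, PSTPIP2, TNIP1, SPDYE3 and AC138783.11 are the reverse.

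Chemokines, which draw leukocytes to a site of infection, held the signal with the smallest p. CCL4L1, a copy of the gene for the macrophage inflammatory protein CCL4 at chr17:34538310-34540280 (GRCh37), read 2.49, 1.45 and 2.36 CPM in WT and 13.3, 10.8 and 9.16 CPM in SCR without LPS. With LPS it read 229, 259 and 206 CPM in WT and 253, 254 and 222 CPM in SCR. The groups lay apart without LPS and overlapped with it, and the interaction was -2.29 ± 0.25 (SE, adjusted p = 8.09e-05). Its copy CCL4L2 at chr17:34639793-34641846 gave -2.28 from the same reads. CCL3L1, a copy of the gene for CCL3 at chr17:34623842-34625731, read 9.78, 12 and 10.4 CPM in WT and 27.2, 39.4 and 25.9 CPM in SCR without LPS, and 106, 114 and 119 CPM against 103, 127 and 134 CPM with LPS. Its interaction was -1.42 ± 0.22 (adjusted p = 0.00266). CXCL10, an interferon-inducible chemokine for T cells, read 3.73, 0.545 and 2.49 CPM in WT and 7.73, 10.8 and 8.93 CPM in SCR without LPS. With LPS it read 289, 318 and 305 CPM in WT and 295, 255 and 253 CPM in SCR, and the interaction was -2.07 ± 0.35 (adjusted p = 0.0074). Its lowest WT library had only 6 counts of this gene.

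Of 23 chemokines listed, 19 were matched to a symbol and 14 tested. Of those 14, 4 had a called negative interaction, which stand for 3 signals, and none a called positive one, with a median of -0.39. Over all genes tested, 0.216% had a called negative interaction. Genes without a symbol in the annotation used could not enter this count, even if they are chemokines. CXCL1 (-1.91 ± 0.66, adjusted p = 0.385) and CXCL11 (-0.93 ± 0.32, adjusted p = 0.384) had values below 0 that did not pass the test. CXCL8, the neutrophil chemokine, rose with LPS by 4.34 in WT and 3.84 in SCR (log2), and its interaction of -0.50 ± 0.67 did not pass the test (adjusted p = 0.828). Values of these low genes were spread widely: CXCL8 in SCR with LPS read 20.7, 47.0 and 23.0 CPM.

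Among secreted cytokines, 2 of 20 tested were called, both negative, and the list median was -0.15. TNF, the founding member of its family, read 12.7, 18.7 and 16.2 CPM in WT and 46.9, 47.9 and 35.1 CPM in SCR without LPS. With LPS the libraries overlapped, at 132, 153 and 137 CPM in WT and 129, 145 and 157 CPM in SCR. The fitted rise was 8.92-fold in WT and 3.32-fold in SCR (interaction -1.42 ± 0.21, adjusted p = 0.0021). LTB, the membrane-bound lymphotoxin beta whose gene lies next to TNF on chromosome 6, differed in the other state. It read 64.7, 60.8 and 71.1 CPM in WT and 84.8, 90.4 and 67.2 CPM in SCR without LPS, which overlapped, and 350, 346 and 405 CPM against 236, 213 and 217 CPM with LPS, which did not. Its interaction was -1.02 ± 0.16 (adjusted p = 0.00487). IL1B, the pyrogenic cytokine, rose by 4.01 in WT and 4.24 in SCR (log2), with an interaction of 0.22 ± 0.38 (adjusted p = 0.87). TNFSF14 (1.77 ± 0.45, adjusted p = 0.165) and IL32 (-2.57 ± 0.64, adjusted p = 0.139) lay far from 0 in opposite directions without passing the test.

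**Figure D3:**
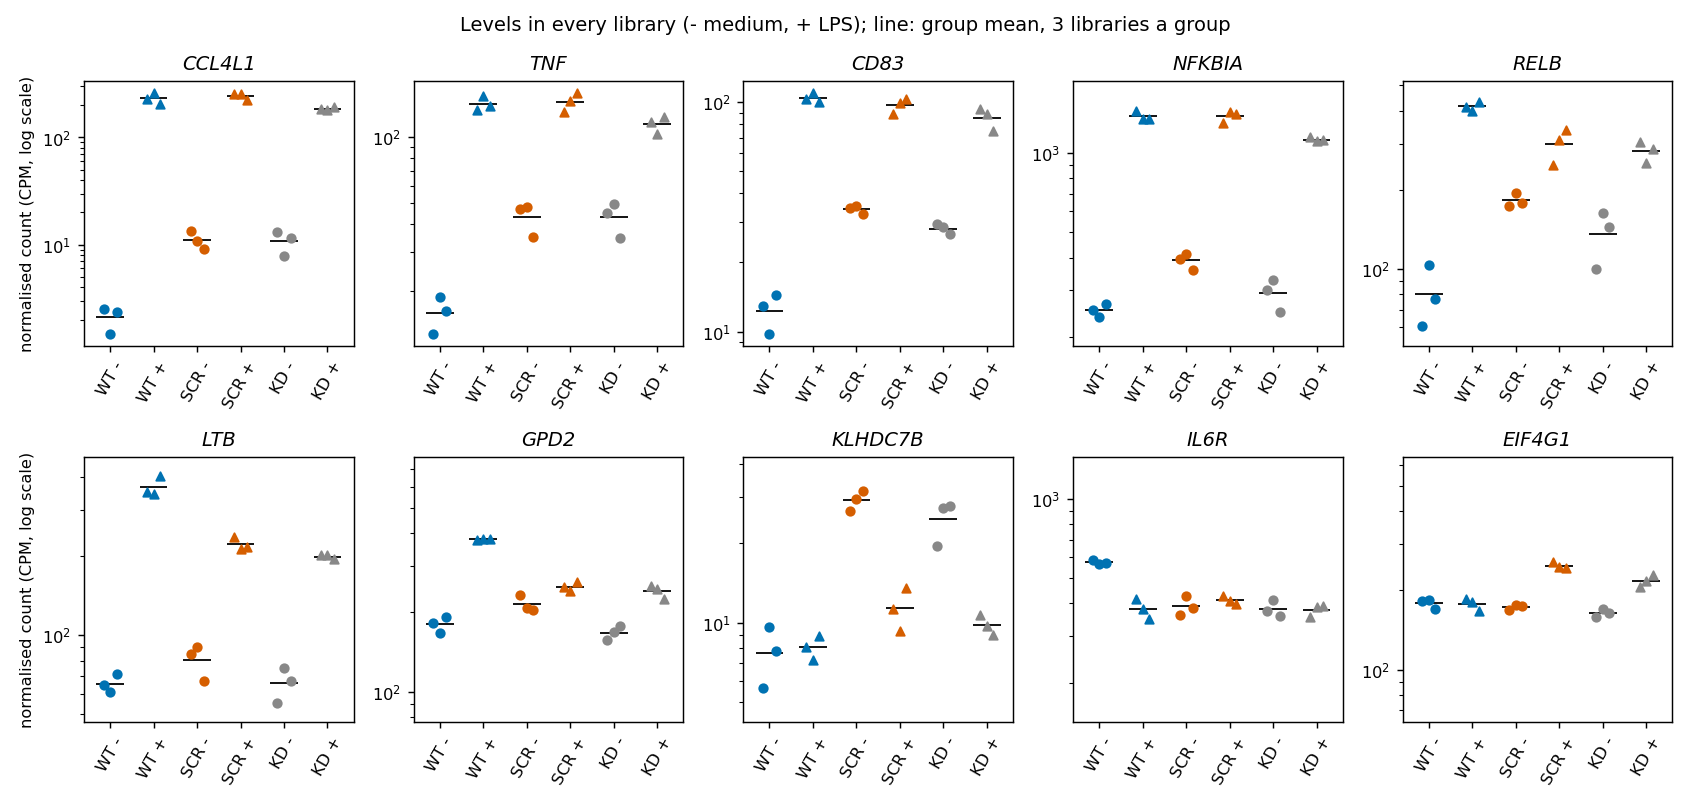
Normalised counts (CPM, log scale) of 10 genes in every library of WT (blue), SCR (orange) and KD (grey), with circles for medium and triangles for LPS and a line at the mean of 3 libraries. CCL4L1, TNF, CD83 and NFKBIA start higher in SCR and meet WT with LPS, LTB and GPD2 are lower in SCR with LPS, KLHDC7B falls with LPS in SCR, and IL6R and EIF4G1 have a positive interaction.

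NF-kB subunits, their inhibitors and the ubiquitin editors that restrain them formed the list with the most called members. Of 28 tested, 7 had a called negative interaction and none a called positive one, 15 had a negative and none a positive value at an unadjusted p under 0.05, and the median was -0.47, beside 0.01 over all genes. Over all genes tested, 0.216% had a called negative interaction. In WT 22 of the 28 rose with LPS and in SCR 19, beside 7.01% and 8.64% of all genes. Of the 28, 10 were higher in SCR than in WT without LPS, beside 1.78% of all genes. The list was written with earlier results of these data known. RELB, the subunit of the non-canonical pathway, read 60.8, 103 and 77.1 CPM in WT and 174, 195 and 179 CPM in SCR without LPS. With LPS it read 413, 401 and 433 CPM in WT and 248, 309 and 337 CPM in SCR, so that the groups lay apart in both states in opposite order. The interaction was -1.67 ± 0.23 (adjusted p = 0.00142). NFKB2, whose product p100 is cut to the partner of RELB, had the same order, with 8.14, 10.2 and 9.25 CPM in WT and 16.1, 16.2 and 13.9 CPM in SCR without LPS and 45.8, 46.1 and 52.5 CPM against 32.8, 32.1 and 34.6 CPM with LPS (interaction -1.29 ± 0.18, adjusted p = 0.00142). The other 5 were NFKB1 (-0.77), the subunit p105, the inhibitors NFKBIA (-0.63) and NFKBIE (-0.78), and TNIP1 (-0.73) and TNIP3 (-1.88), which bind the ubiquitin editor TNFAIP3, with adjusted p from 0.0113 to 0.0368. NFKBIA read from 238 to 266 CPM in WT and from 360 to 414 CPM in SCR without LPS, and from 1351 to 1448 CPM and from 1301 to 1438 CPM with LPS. The interactions of RELA (-0.40 ± 0.16), TNFAIP3 (-0.88 ± 0.23), BCL3 (-0.95 ± 0.23) and NFKBIZ (-1.11 ± 0.30) had unadjusted p under 0.05 and adjusted p of 0.45, 0.175, 0.116 and 0.211. REL (0.35 ± 0.24) and TRAF6 (0.54 ± 0.32) were above 0 without passing.

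Sequence before the start sites was searched because so many of the called genes belong to NF-kB. The letters GGGANNTTCC and GGGGNTTTCC, typical of NF-kB sites, were looked for on both strands in the 300 bases that span 250 before to 50 after the RefSeq start (GRCh38.p14). Of 32 symbols with a negative interaction 23 had such a sequence, and 4 held a match, 17.4%. A match was found in 2.12% of the 10721 tested genes with a sequence and in 5.75% of the 765 that rose with LPS in WT. The 4 matches are shown with 10 bases on each side and the match in capitals, read along the strand of the gene. Each is a match of letters and not a measured site, and a gene without one may carry other forms or more distant sites.
LTB, chr6:31582492-31582521 (minus strand), 86 bases before the start: aggggtgtgcGGAAAGTCCCagccaggtgt
CXCL10, chr4:76023655-76023684 (minus strand), 177 bases before the start: gaggagcagaGGGAAATTCCgtaacttgga
NFKBIA, chr14:35404811-35404840 (minus strand), 81 bases before the start: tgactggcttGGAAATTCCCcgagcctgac
NFKB1, chr4:102501300-102501329 (plus strand), 49 bases before the start: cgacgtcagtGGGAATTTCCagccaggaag
All 4 genes rose with LPS in WT and in SCR, and less in SCR. They differed in the state where SCR and WT lay farther apart. For LTB that was with LPS, where it was lower in SCR (-0.72, beside 0.30 without LPS, log2). For CXCL10, NFKBIA and NFKB1 it was without LPS, where they were higher in SCR.

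Surface molecules of antigen-presenting and adhesive cells gave 2 called genes of 27, both negative, with a median of -0.20. CD83, a marker of mature dendritic cells at chr6:14117487-14137149, read 12.9, 9.72 and 14.5 CPM in WT and 34.7, 35.4 and 32.4 CPM in SCR without LPS. With LPS it read 103, 109 and 99.8 CPM and 88.4, 99.5 and 104 CPM, and the groups overlapped (interaction -1.55 ± 0.17, adjusted p = 8.09e-05). CD44, the receptor for hyaluronan, read 40.8, 42.3 and 45.9 CPM in WT and 76.1, 72.6 and 71.9 CPM in SCR without LPS, and 179, 169 and 183 CPM against 158, 166 and 160 CPM with LPS (-0.91 ± 0.16, adjusted p = 0.00916). ICAM1, a ligand of leukocyte integrins, lay just outside the threshold at -1.46 ± 0.31 (adjusted p = 0.055), as did SLAMF7 at -1.53 ± 0.33 (adjusted p = 0.0567). Among 21 genes of matrix and plasminogen, CD44 was called again together with TNFAIP6, which binds hyaluronan, and the median was -0.06. TNFAIP6 read from 0.356 to 0.452 CPM in WT and from 1.16 to 2.01 CPM in SCR without LPS, which is 4 to 8 and 22 to 26 counts, and from 102 to 137 CPM and from 92.7 to 131 CPM with LPS (-2.18 ± 0.39, adjusted p = 0.0128). SDC4, a heparan sulfate carrier of the cell surface, belonged to no list and read 15.4, 19.0 and 22.1 CPM in WT and 30.0, 35.0 and 31.5 CPM in SCR without LPS, and 120, 124 and 115 CPM against 96.6, 110 and 104 CPM with LPS (-0.97 ± 0.16, adjusted p = 0.0074).

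Enzymes among the 39 showed both patterns, a higher start in SCR and a lower level with LPS. GPD2, the mitochondrial glycerol-3-phosphate dehydrogenase at chr2:157291802-157470247, read 183, 167 and 193 CPM in WT and 233, 207 and 205 CPM in SCR without LPS. With LPS it read 376, 382 and 382 CPM in WT and 251, 242 and 260 CPM in SCR. It rose 2.10-fold in WT, and the 1.17-fold value in SCR did not pass the test (adjusted p = 0.0739), with an interaction of -0.85 ± 0.12 (adjusted p = 0.00142). ODC1, the first enzyme of polyamine synthesis, read from 24.6 to 26.5 CPM in WT and from 62.2 to 66.7 CPM in SCR without LPS, and from 41.8 to 53.3 CPM and from 58.7 to 74.2 CPM with LPS (-0.85 ± 0.16, adjusted p = 0.0288). It was the 1 called member of 29 prostaglandin, leukotriene and immunometabolic genes (median -0.08). IL4I1, a secreted amino acid oxidase, read 5.99, 12.1 and 11.7 CPM in WT and 34.4, 46.8 and 34.3 CPM in SCR without LPS, and 83.1, 85.4 and 91.6 CPM against 99.4, 112 and 111 CPM with LPS (-1.65 ± 0.28, adjusted p = 0.00916). It was higher in every SCR library than in every WT library in both states.

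RCAN1, an inhibitor of the phosphatase calcineurin, was the 1 called member of 16 on the calcineurin and NFAT axis (median 0.05). It read 48.5, 50.5 and 52.3 CPM in WT and 120, 107 and 99.3 CPM in SCR without LPS, and 133, 139 and 127 CPM against 140, 164 and 140 CPM with LPS (-0.96 ± 0.13, adjusted p = 0.00142). ZC3H12A, an endonuclease that degrades cytokine mRNA, was the 1 called member of 17 mRNA decay regulators, whose median was -0.01 (-0.92 ± 0.18, adjusted p = 0.0329). SQSTM1, the autophagy receptor p62, had -0.60 ± 0.12, and FTH1, the heavy chain of the iron store ferritin, -0.56 ± 0.11. They were the called members of 26 antioxidant, ferritin and metallothionein genes tested (median -0.04). Of the 30 names on that list, 29 were matched to a symbol. FTH1 has many pseudogene copies that can share its reads, and both genes were higher in SCR without LPS by 0.62 and 0.53 (log2). The remaining genes with a smaller rise were PSTPIP2 (-0.81), an adaptor of the actin cytoskeleton, LIMK2 (-0.64), a kinase of the actin regulator cofilin, and ZMIZ2 (-0.69). ITGB2-AS1 (-1.45) lies antisense to ITGB2, and reads of the pair cannot be told apart where counting ignored strand, which is not given in the sources used here. ITGB2 itself had an interaction of -0.39 ± 0.13 (adjusted p = 0.358).

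The 4 called genes with no symbol in the annotation used could not enter any list, so their functions are missing from the list counts. All 4 rose with LPS in WT and SCR and were higher in SCR without it. ENSG00000129277 read 2.03, 1.45 and 2.71 CPM in WT and 8.62, 12.1 and 8.24 CPM in SCR without LPS, and 216, 250 and 200 CPM against 257, 286 and 250 CPM with LPS (-1.88 ± 0.28, adjusted p = 0.00208). ENSG00000006075 read 14.5, 20.2 and 19.7 CPM and 50.5, 77.2 and 56.3 CPM without LPS, and 238, 253 and 244 CPM against 229, 328 and 325 CPM with LPS (-1.49 ± 0.22, adjusted p = 0.00244). ENSG00000256515 carried the counts of CCL3L1 (-1.41 ± 0.22). ENSG00000112096 was higher in SCR without LPS, at 79.8, 86.3 and 74.6 CPM against 49.7, 48.3 and 52.7 CPM, and overlapped with LPS, where it rose to between 1148 and 1410 CPM (-0.79 ± 0.14, adjusted p = 0.0161).

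In 4 genes the level fell with LPS in SCR and did not pass the test in WT. Of these, RPS17P2 had a fitted rise in WT of 0.84 ± 0.29 (log2, adjusted p = 0.0583), beside -1.09 ± 0.28 in SCR. KLHDC7B read 5.65, 9.63 and 7.78 CPM in WT without LPS and 8.08, 7.19 and 8.91 CPM with LPS. In SCR it read 26.5, 29.5 and 31.6 CPM without and 11.2, 9.24 and 13.5 CPM with LPS (interaction -1.44 ± 0.28, adjusted p = 0.0262). RPS17P2, a processed pseudogene of a ribosomal protein, read from 2.77 to 8.54 CPM and from 7.39 to 9.78 CPM in WT and from 9.77 to 13.7 CPM and from 4.75 to 7.23 CPM in SCR (-1.93 ± 0.41, adjusted p = 0.0494). SPDYE3, of a family of many copies on chromosome 7, had 21, 12 and 23 counts in WT and 78, 35 and 27 in SCR without LPS, and 12, 17 and 4 counts against 0, 2 and 4 with LPS (-3.98 ± 0.84, adjusted p = 0.0478). AC138783.11, which shared its reads, gave -3.71 ± 0.79 (adjusted p = 0.0497).

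Only 3 genes had a positive interaction past the threshold, and no list held any of them. IL6R, the receptor subunit that binds interleukin 6, read 586, 565 and 568 CPM in WT without LPS and 417, 382 and 349 CPM with LPS. In SCR it read 362, 426 and 386 CPM without and 427, 409 and 399 CPM with LPS, so that a fall of 0.58 ± 0.08 (log2) in WT faced a value of 0.07 ± 0.08 in SCR (interaction 0.66 ± 0.12, adjusted p = 0.0161). PHACTR3, which binds actin and protein phosphatase 1, read 52.5, 43.0 and 48.2 CPM in WT without LPS and 25.8, 24.5 and 20.7 CPM with it, against 34.6, 27.7 and 33.0 CPM and 34.6, 25.8 and 29.8 CPM in SCR (0.93 ± 0.19, adjusted p = 0.0339). EIF4G1, the scaffold of the cap-binding complex in translation, read 183, 184 and 170 CPM in WT without LPS and 185, 181 and 167 CPM with it. In SCR it read 168, 176 and 175 CPM without and 257, 245 and 245 CPM with LPS, a rise that passed the test in SCR and not in WT (0.54 ± 0.11, adjusted p = 0.0425). The next in order of p were AKIRIN1 (0.80 ± 0.18, adjusted p = 0.0888) and RPAP3 (0.75 ± 0.17, adjusted p = 0.0888), which did not pass.

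The LPS receptor complex and the adaptors and kinases below it had no called gene among 31, with 18 values above and 13 below 0 and a median of 0.03. TICAM1 had the smallest p (-0.72 ± 0.24, adjusted p = 0.363), and CD14, the co-receptor that hands LPS to TLR4, had -0.79 ± 0.30 (adjusted p = 0.432). Type I interferon-stimulated genes had none among 48, with a median of -0.05, and ISG20 came nearest (-0.61 ± 0.13, adjusted p = 0.0567). No gene was called among 29 immediate-early factors (median -0.17, ATF3 at -0.97 ± 0.23, adjusted p = 0.103), 16 MAP kinase phosphatases and feedback regulators (0.06, DUSP6 at 0.64 ± 0.19, adjusted p = 0.3), 29 guanylate-binding and MHC class I genes (-0.15, GBP1 at -1.04 ± 0.34, adjusted p = 0.356), or 28 JAK, STAT, SOCS and IRF genes (0.13, IFNGR2 at -0.27 ± 0.11, adjusted p = 0.465). The 27 sensors of nucleic acid and parts of the RNA interference machinery also had none, with 20 values above 0 and a median of 0.18, and XPO5, which exports microRNA precursors, had the smallest p (-0.47 ± 0.15, adjusted p = 0.336).

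Lists of growth and housekeeping functions held no called gene. Ribosome biogenesis and nucleolar genes had 28 of 33 values below 0 and a median of -0.22, with 7 negative and 0 positive values at an unadjusted p under 0.05 and none called. RRS1 (-0.62 ± 0.16, adjusted p = 0.206) and NOP16 (-0.47 ± 0.13, adjusted p = 0.279) came first. Cytosolic ribosomal proteins had 63 of 75 values below 0 with a median of -0.12, 11 negative and 0 positive at an unadjusted p under 0.05 and none called, with RPL8 at -0.43 ± 0.12 (adjusted p = 0.253). The median difference between SCR and WT in these lists was 0.30 and 0.17 without LPS and 0.08 and 0.05 with it (log2). Of the 33 and of the 75 genes, 8 each passed the test as higher in SCR without LPS, beside 1.78% of all genes tested. Genes of mitosis and G2/M ran the other way, with 29 of 35 values above 0, a median of 0.17, 8 positive and 0 negative at an unadjusted p under 0.05 and none called, and their median LPS response was -0.36 in WT and -0.13 in SCR. CKS2 (0.74 ± 0.23, adjusted p = 0.307) and PRC1 (0.42 ± 0.14, adjusted p = 0.386) had the smallest p. No gene was called among those of DNA replication (median -0.09, RFC4 at -0.55 ± 0.16, adjusted p = 0.279), the respiratory chain (-0.03), mitochondrial DNA (0.03), glycolysis and hypoxia (0.07), the integrated stress response (0.02), ER chaperones (0.15) or cytosolic heat shock (0.07, CHORDC1 at 0.68 ± 0.22, adjusted p = 0.344). Sterol synthesis (0.09) held MVK, mevalonate kinase, at -0.84 ± 0.20 (adjusted p = 0.104), and lysosomes (-0.01) held CTSH, a cathepsin, at -0.89 ± 0.20 (adjusted p = 0.0888).

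Cell death and lineage lists likewise had medians near 0 and no called gene. Among 30 genes of the BCL2 family, caspases and the inflammasome (median 0.04), the inhibitor of apoptosis BIRC3, which is also on the NF-kB list, had -1.02 ± 0.24 (adjusted p = 0.0979) and BCL2L1, which protects from apoptosis, -1.17 ± 0.32 (adjusted p = 0.242). Among 26 myeloid transcription factors (median 0.02), ID3, an inhibitor of helix-loop-helix factors, had 1.54 ± 0.36 (adjusted p = 0.0957). The 22 S100 and granule genes (-0.01, SERPINB2 at 1.25 ± 0.54, adjusted p = 0.466) and the 10 genes of MHC class II and CIITA (-0.14, HLA-DRA at -0.72 ± 0.34, adjusted p = 0.493) had none either. The lists were given no test of their own, and these counts stand beside the 5.43% and 4.53% of all genes with a negative or positive value at an unadjusted p under 0.05.

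**Figure D4:**
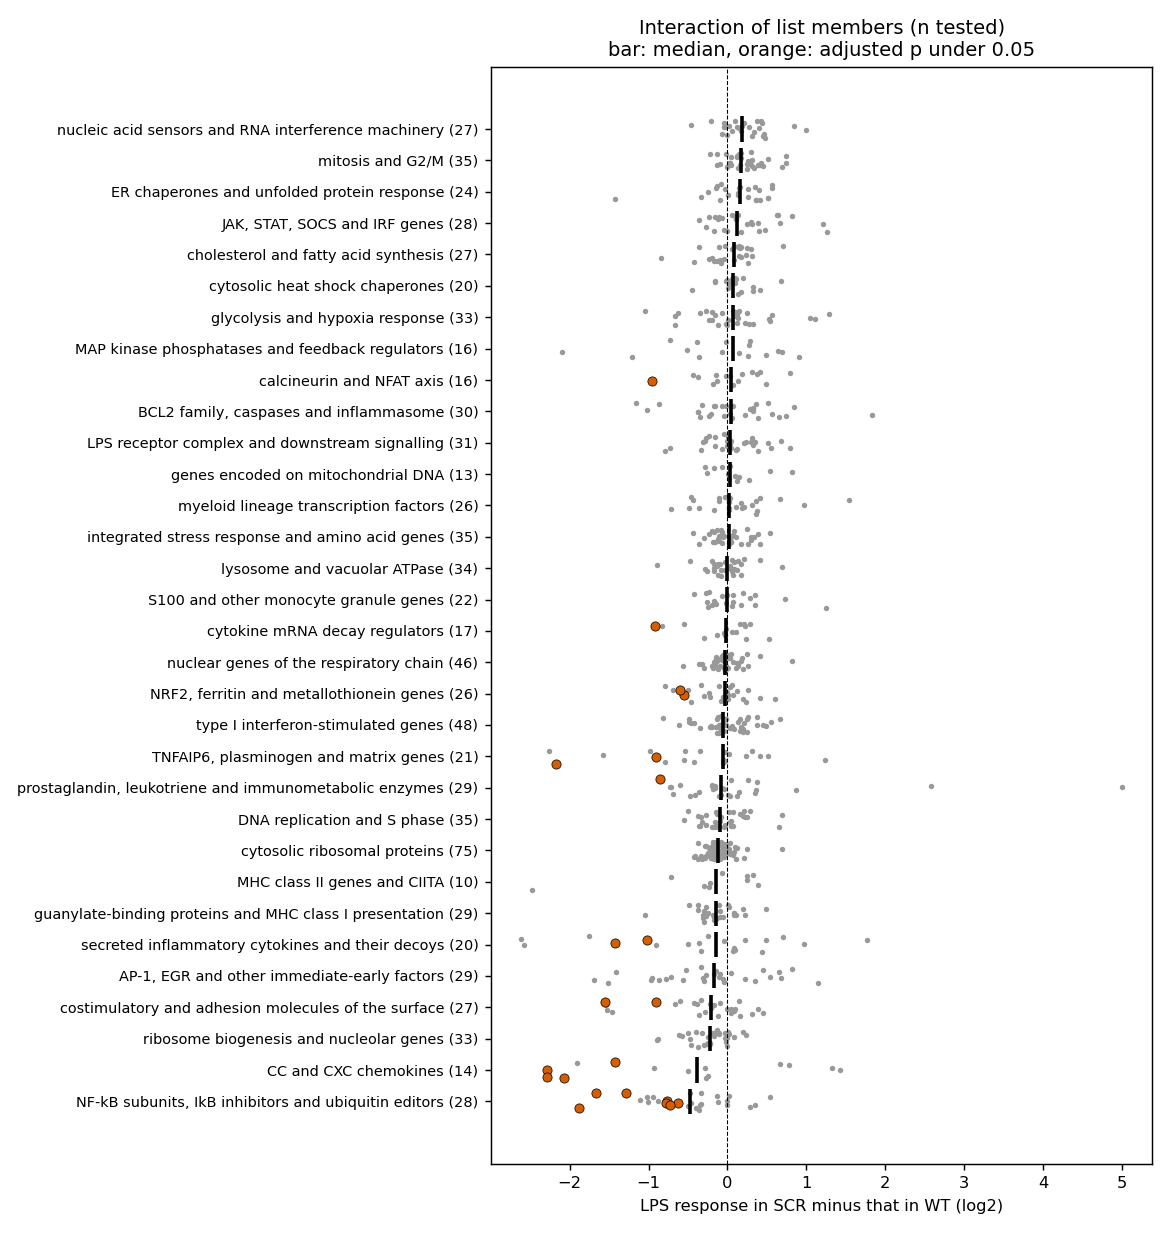
Interaction (log2) of every tested member of 32 lists of functions, with the median as a bar and genes past an adjusted p of 0.05 in orange. The list of NF-kB genes has the lowest median, -0.47, and the called genes of all lists lie below 0.

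The interaction was also read over all genes with a strong LPS response, chosen by the mean of the WT and SCR responses rather than by WT alone. That choice uses the same libraries as the interaction, so it is not separate evidence, and its values moved with the class and the level. Of 501 genes that rose by over 1 (log2, adjusted p under 0.05), 314 had a negative interaction, 62.7% beside 49.1% of all genes, and the median was -0.21. Among those that rose by 1 to 2 the median was -0.10 (366 genes), by 2 to 4 it was -0.73 (104 genes), and by over 4 it was -0.37 (31 genes). When the class was taken from the response in KD, whose libraries the interaction does not use, 206 of 378 were negative, 54.5%, with a median of -0.072. By size of the rise in KD the median was 0.011 for 1 to 2 (267 genes), -0.37 for 2 to 4 (79 genes) and -0.92 for over 4 (32 genes). With the averaged class limited to a mean of at least 10 CPM, a limit chosen after seeing the data, 146 of 191 were negative, 76.4%, with a median of -0.33. The 481 genes that fell by over 1 in the averaged class had a median of -0.61, which moved to 0.024 in the 83 of them with at least 10 CPM. The 165 genes that fell by over 1 in KD had a median of -0.071.

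The KD cells also carried 25 nM of siRNA, and their values are set beside those of SCR and WT for some of the called genes. Without LPS, CCL4L1 read 13.2, 7.77 and 11.5 CPM, TNF 45.2, 49.6 and 34.9 CPM and CD83 29.3, 28.4 and 26.6 CPM in KD, all above every WT library. In that state KD overlapped WT for RELB (99.6, 164 and 144 CPM) and NFKBIA (300, 328 and 249 CPM). It also did for LTB (55.2, 75.2 and 67.2 CPM) and GPD2 (157, 169 and 177 CPM). PSTPIP2, ITGB2-AS1, TNIP3, ZMIZ2, SPDYE3 and AC138783.11 overlapped too. For every other gene with a negative interaction, each KD library without LPS was above every WT library. The margin was small for ZC3H12A (lowest KD 20.7, highest WT 20.6 CPM), CXCL10 (3.97 and 3.73 CPM) and TNIP1 (70.8 and 69.6 CPM). All these genes were chosen partly by the same WT libraries, so this order is not separate evidence. The share of all genes with KD above WT was not computed. The LPS response in KD was 4.09 for CCL4L1, 1.40 for TNF, 1.60 for CD83 and 1.05 for RELB (log2), beside 6.73, 3.16, 3.06 and 2.37 in WT. IL6R had a KD response of -0.02 and EIF4G1 of 0.40, while SPDYE3 (-0.28) and RPS17P2 (-0.16) had values nearer to 0 than in SCR. No test was run on KD against the other groups here.

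Leaving out 1 of the 12 libraries left between 17 and 26 genes called in 11 of the 12 fits, the fewest without WT replicate 1 without LPS, and 91 without WT replicate 2 without LPS. The 17 genes called in every one of these fits were CCL4L1, CCL4L2, CD83, GPD2, RELB, RCAN1, NFKB2, ENSG00000129277, TNF, ENSG00000006075, CCL3L1, ENSG00000256515, LTB, SDC4, CXCL10, CD44 and IL4I1, and each of the other 22 was lost in at least 1. Of the other NF-kB genes, TNIP1 was called in 10 of the 12 fits, NFKBIA in 3, and NFKBIE, NFKB1 and TNIP3 in 2 each. Of the genes with a positive interaction, IL6R was called in 6, PHACTR3 in 3 and EIF4G1 in 1. Across genes the interaction had a Spearman correlation of -0.20 with GC content (16235 genes in the same libraries, a description). The correlation was -0.22 for SCR minus WT with LPS and -0.19 for the LPS response in SCR. It was 0.03 for SCR minus WT without LPS and -0.02 for the LPS response in WT. Median GC content was 51.1% in the 35 called genes with a value and 47.4% in all genes. The list medians above are not corrected for GC content. With counts corrected for GC content 33 genes were called, 30 of them among the 39, and SQSTM1, ZC3H12A, NFKBIA, NFKBIE, ITGB2-AS1, LIMK2, ZMIZ2, SPDYE3 and RPS17P2 no longer passed. Their corrected interactions kept their sign, for example -0.50 for SQSTM1, -0.77 for ZC3H12A, -0.57 for NFKBIA and -3.98 for SPDYE3, with adjusted p of 0.125, 0.225, 0.079 and 0.0521. The part of GC content in these results was not tested further. In bulk RNA, fewer cells with a transcript and less of it per cell cannot be told apart.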

How the data were processed

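Libraries were made from total RNA of THP-1 cells with a 3′ kit (QuantSeq), which reads the end of each transcript. The authors trimmed reads, aligned them with HISAT to the human_g1k_v37 genome (GRCh37, Ensembl 75), and counted reads per gene with featureCounts over a shortened annotation that keeps the end of each gene, so a changed transcript end could change a count. They deposited raw counts per gene, without normalisation.

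All 18 libraries (6 groups of 3, from the deposited labels) entered 1 model in edgeR 4.0.16 (R 4.3.3, limma 3.58.1) with TMM factors and a low-count filter by group. Contrasts were tested by the quasi-likelihood F test, with Benjamini-Hochberg adjustment over 16678 genes and a threshold of 0.05. The interaction was the LPS response in SCR minus that in WT. Standard errors are the fitted value divided by the square root of F, and CPM use TMM-scaled library sizes. The steps were also run on simulated counts drawn from a common mean per gene, with interactions added in some genes. Those counts held no other LPS response, no SCR and WT difference without LPS and no pairing of libraries. The outcome is not given here. Depth was 8206023 to 22344279 counts, and statements on 3 counts cover counting error only. DESeq2 1.42.0, another normalisation, no filter, 12 libraries only, a replicate block, a GC correction and leaving out each library were alternatives. A limit of 10 CPM on responder classes was added after seeing the data.

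Genes, lists and tests were chosen with earlier results of these data known. Every called gene is named, with per-library values for the 15 smallest p-values among negative interactions (copies as 1) and for all positive ones, and 1 or 2 members of smallest p represent lists without a call. TNF, IL1B, CXCL8, CXCL10, NFKBIA and TRAFD1 served as label checks. Other genes given with values were chosen after their values were seen. For pairing, deviations of equally numbered WT and SCR libraries correlated at 0.261, 0.163 and 0.253 with LPS, and at 0.064, 0.064 and -0.053 without. The numbers were taken to pair libraries with LPS only, from these correlations and not from a label.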

Additional observations from a re-analysis of the deposited data

Results flagged for a closer look

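The LPS response of 39 genes differed between SCR and WT by the test of the interaction itself, and each value is the log2 response in SCR minus that in WT. The chemokines with a symbol were CCL4L1 (-2.29), CCL4L2 (-2.28), CCL3L1 (-1.42) and CXCL10 (-2.07), and the cytokines TNF (-1.42) and LTB (-1.02). The NF-kB group held RELB (-1.67), NFKB2 (-1.29), NFKB1 (-0.77), NFKBIA (-0.63), NFKBIE (-0.78), TNIP1 (-0.73) and TNIP3 (-1.88). Surface and matrix genes were CD83 (-1.55), CD44 (-0.91), SDC4 (-0.97) and TNFAIP6 (-2.18). Enzymes and regulators were GPD2 (-0.85), ODC1 (-0.85), IL4I1 (-1.65), RCAN1 (-0.96), ZC3H12A (-0.92), SQSTM1 (-0.60), FTH1 (-0.56), PSTPIP2 (-0.81), LIMK2 (-0.64) and ZMIZ2 (-0.69), with the antisense gene ITGB2-AS1 (-1.45). Genes without a symbol were ENSG00000129277 (-1.88), ENSG00000006075 (-1.49), ENSG00000256515 (-1.41) and ENSG00000112096 (-0.79). Genes that fell with LPS in SCR and did not pass the test in WT were KLHDC7B (-1.44), RPS17P2 (-1.93), SPDYE3 (-3.98) and AC138783.11 (-3.71). The positive values were those of IL6R (0.66), PHACTR3 (0.93) and EIF4G1 (0.54).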

How the results depend on the processing

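The interaction called 39 genes, 3 positive and 36 negative, and none of the 39 changed sign under any of the 19 alternatives. DESeq2's Wald test called 85 (17 positive, 68 negative) and the fit without a low-count filter 241 (108 and 133). DESeq2 size factors and the 12 libraries alone called 37 each. With the replicate number as a block 41 genes were called, 35 of them among the 39, and the block with the GC correction called 37, 6 of them positive. Leaving out 1 library gave 17 to 91 calls, 0 to 6 positive and 17 to 85 negative, with 1149 genes at an unadjusted p under 0.05 in the fit with 17. SCR against WT without LPS moved from 538 genes to 929 with the Wald test, 934 with the block and 1032 with the block and GC correction, and to between 193 and 510 without 1 library. The numbers do not pair those libraries. SCR against WT with LPS moved from 19 to 196 with the Wald test, 593 without the filter, 34 in 12 libraries, 135 with the block, 175 with the block and GC correction, and 0 to 24 without 1 library. The LPS response in SCR called 1789 to 2864 genes without 1 library. The median interaction of rising genes was -0.072 when the class came from KD and -0.33 at 10 CPM or more (-0.15 from KD at 10 CPM or more), and that of falling genes -0.071, 0.024 and, from KD at 10 CPM or more, -0.10. The median of MAP kinase phosphatases was 0.28 without the filter. The interaction of TRAFD1 ranged from -0.0079 (without WT replicate 6 with LPS) to 0.354 without 1 library. Of the other results for named genes, 1452 kept direction and side of the threshold, 222 lost it and 34 gained it. The cause of these changes was not tested. Low genes are limited by depth, since 3 counts are up to 0.366 CPM.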
